A study of Mus musculus with 4 samples.

Results

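AP-1 is a family of dimers of Fos and Jun proteins that bind a short palindrome, TGACTCA or TGAGTCA, and act downstream of Ras and growth factor signaling. In epithelial cells many AP-1 sites lie in enhancers, far from promoters. ETS factors, which include Etv4 and Etv5, bind around a GGAA core and often share enhancers with AP-1. FAIRE-seq recovers DNA that formaldehyde has left unbound to protein, and a peak of its signal marks accessible chromatin.

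The regions described here are the distal accessible regions of EpRas cells that were found in every library and held an AP-1 site without an ETS site. They numbered 3106 of 35789 merged regions. They were selected on the peak calls and on the sequence. Peaks of the 4 lists were merged wherever they overlapped by at least 1 bp, and 10587 merged regions had a peak in all 4 lists. Of these, 10538 were autosomal and 5530 had their middle more than 2 kb from any annotated transcription start site (TSS), and these 5530 are called constant distal regions. In the 500 bp around the middle, 3284 of them held a perfect AP-1 site on either strand. Of those, 3106 had no ETS site, searched as CCGGAA followed by A or G on either strand, and these are the members. The remaining 2424 constant distal regions comprised 178 with both sites, 187 with an ETS site only and 2059 with neither.

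EpRas cells are a mouse mammary gland epithelial cell line that carries active H-Ras, and all 4 groups share this transformation. The groups were cells given control siRNA and left untreated (siControl untreated), cells given control siRNA and 1 ng/ml TGF-β (siControl TGF-β), and cells in which Etv4 and Etv5 were targeted by 1 of 2 siRNA sets under 1 ng/ml TGF-β (siEtv4/5 set 1 and set 2). TGF-β3 was used and the cells were taken at day 4. Each group had 1 peak list and no replicate, so no p-value was computed, and intervals cover the spread over regions or counting error only. The study describes biological replicates, which may have been pooled in each list. No library with an siRNA against Etv4 and Etv5 but without TGF-β was part of the comparison, and RNA was not analysed here, so the knockdown cannot be read from these data.

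The sequences below show AP-1 sites, in capitals, within members that recur in the results, on the plus strand of mm10 and read from the RefSeq copy of this assembly. The name in front of each is the gene with the nearest protein-coding TSS, which is not necessarily a target. The stretch near Usp7 is the only member with 6 sites, of which 5 fit in the 300 bases shown, and 3 of these stand in a row with 3 bases between neighbours.
Usp7, chr16:8810757-8811056: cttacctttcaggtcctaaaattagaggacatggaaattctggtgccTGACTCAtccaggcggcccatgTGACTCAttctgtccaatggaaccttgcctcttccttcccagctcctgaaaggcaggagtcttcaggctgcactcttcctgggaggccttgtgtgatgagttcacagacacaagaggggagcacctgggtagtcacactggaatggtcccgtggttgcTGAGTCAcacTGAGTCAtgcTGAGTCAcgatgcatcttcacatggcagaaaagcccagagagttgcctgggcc
The next 5 stretches, near Sfi1, Tubb3 and Myc, come from the members with the most fragments per M reads, and each holds a single site.
Sfi1, chr11:3159831-3159931: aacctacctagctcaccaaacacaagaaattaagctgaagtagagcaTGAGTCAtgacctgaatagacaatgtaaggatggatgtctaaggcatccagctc
Sfi1, chr11:3153807-3153907: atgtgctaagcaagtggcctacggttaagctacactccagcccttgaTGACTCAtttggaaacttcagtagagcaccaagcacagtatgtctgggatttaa
Tubb3, chr8:123426567-123426667: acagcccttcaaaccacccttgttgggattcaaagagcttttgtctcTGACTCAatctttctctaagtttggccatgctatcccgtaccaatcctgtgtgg
Myc, chr15:61532209-61532309: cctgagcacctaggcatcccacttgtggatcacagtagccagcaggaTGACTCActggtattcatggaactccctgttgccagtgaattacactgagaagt
Myc, chr15:61532884-61532984: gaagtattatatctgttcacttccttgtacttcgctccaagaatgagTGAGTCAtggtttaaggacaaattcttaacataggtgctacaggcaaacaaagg
The stretch near Hes1 comes from the member with the lowest ratio of TGF-β over untreated.
Hes1, chr16:30034157-30034257: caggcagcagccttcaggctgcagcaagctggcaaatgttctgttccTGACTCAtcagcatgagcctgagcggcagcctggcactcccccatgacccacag
The remaining stretches come from the extremes of the siRNA comparisons, with the highest ratio near Rpl27a for set 1 and near Hmga2 for set 2, and the lowest near Osmr for set 1 and near Tbx21 for set 2.
Rpl27a, chr7:109559642-109559742: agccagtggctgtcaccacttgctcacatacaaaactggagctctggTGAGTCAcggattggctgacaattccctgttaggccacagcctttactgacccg
Hmga2, chr10:120616799-120616899: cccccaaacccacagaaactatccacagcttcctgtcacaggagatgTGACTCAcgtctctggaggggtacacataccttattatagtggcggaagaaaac
Osmr, chr15:6850038-6850138: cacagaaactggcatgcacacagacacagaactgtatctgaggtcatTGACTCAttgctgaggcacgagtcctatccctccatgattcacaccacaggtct
Tbx21, chr11:97083914-97084014: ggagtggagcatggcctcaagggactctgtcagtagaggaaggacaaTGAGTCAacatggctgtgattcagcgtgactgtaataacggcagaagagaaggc

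AP-1 sites were far more common in constant distal regions than in the genome at large. An AP-1 site was present in 59.4% of the 5530 constant distal regions. Of 4386360 distal autosomal tiles of 500 bp, 7.76% held one. An ETS site of the form searched was found in 6.60% of the constant distal regions and in 2.21% of the tiles. An AP-1 site without an ETS site, the combination that defines the members, was present in 56.2% of the constant distal regions and in 7.58% of the tiles.

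The rule set a distance of more than 2 kb from any TSS, and most members lay well beyond it. The median distance to the nearest protein-coding TSS was 31.7 kb (quartiles 13.3 and 77.8 kb), against 27.1 kb in regions with neither site and 20.3 kb in regions with ETS only. Within 10 kb of such a TSS lay 584 members (18.8%), and 599 (19.3%) were more than 100 kb away. By the middle base, 1582 members (50.9%) were intronic, 1440 (46.4%) intergenic and 84 (2.70%) exonic. The median G+C content of the 500 bp was 47.2%, close to the 47.6% of regions with neither site and below the 51.0% of regions with ETS only. Repeat-masked bases made up at least 50% of the window in 0.869% of members, against 2.04% of regions with neither site. A total of 337 members (10.85%) lay within 10 kb of another member, in 161 groups of at most 4. The 2 groups of 4 were near Scgb1a1 on chromosome 19, spanning 20.99 kb, and near Zfpm1 on chromosome 8, spanning 13.5 kb. Members per Mb ranged from 0.592 on chromosome 14 to 2.22 on chromosome 15. Their share of the regions called in all 4 libraries was alike on these chromosomes, at 32.5% and 31.8%.

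The members nearest to a TSS were 2008 bp away near Kmt5b and 2017 bp away near Mef2d, with fold enrichments of 4.79 and 6.42 in siControl TGF-β. The nearest regions just excluded were both 1996 bp from a TSS, near Cd7 and Dnaic2, with fold enrichments of 11.6 and 7.96 in the same library. One of the least significant members, near E2f8, had a lowest -log10 q-value of 5.01, where the authors' limit is 4. A further 2037 distal autosomal regions with an AP-1 site and no ETS site were called in 3 of the 4 libraries. Of these, 1215 (59.6%) were missing only in set 2, 574 (28.2%) only in siControl untreated, 206 (10.1%) only in set 1 and 42 (2.06%) only in siControl TGF-β. Over all 6609 merged regions called in 3 libraries the shares were 62.7%, 20.5%, 12.5% and 4.37%. The lists held 14925, 22247, 22516 and 28754 peaks in the same order, and more regions were missing from shorter lists. The untreated and set 1 lists were nearly equal in length, however, with 574 and 206 regions missing. The cause was not tested. Those missing in set 2 had a median fold enrichment of 8.51 in siControl TGF-β, and those missing in the untreated library 8.20, both below the 9.58 of the members.

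The AP-1 site sat close to the point of highest signal. In siControl TGF-β the median distance from the summit of the peak to the middle of the nearest AP-1 site was 28 bp (95% interval 26 to 29, n = 3106), although the rule allowed a site anywhere within 250 bp of the middle of the region. The site was within 10 bp of the summit in 663 members (21.3%), within 50 bp in 2263 (72.9%) and within 100 bp in 2835 (91.3%). The median was 28 bp in siControl untreated and 29 bp with set 1. With set 2 it was 33 bp (31 to 34), and 66.97% of members had a site within 50 bp. An AP-1 site lay inside the called peak of all 4 libraries in 2715 members (87.4%). The 4 summits of a member spread over a median of 65 bp from the first to the last, so the position of a single summit is itself inexact. This range over 4 summits is not the same measure as the distance from 1 summit to its nearest site.

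**Figure D1:**
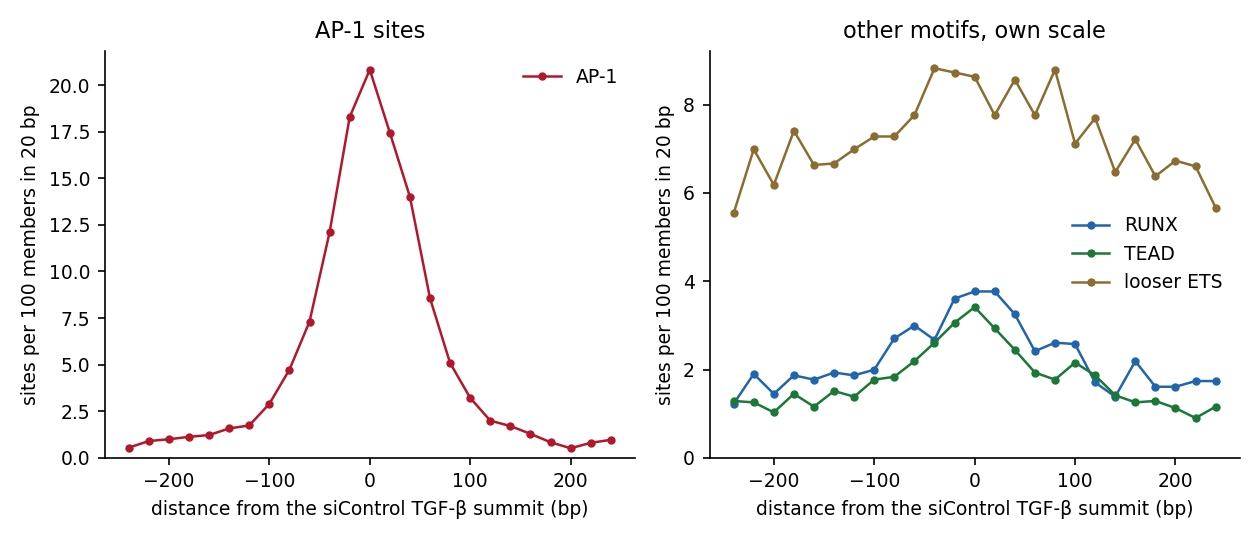
Number of motif matches per 100 members in bins of 20 bp, by distance from the siControl TGF-β summit, for AP-1 sites (left) and for RUNX, TEAD and looser ETS matches (right, on another scale). AP-1 sites gather at the summit, RUNX and TEAD matches are about 2 times as frequent there as 200 to 250 bp away, and looser ETS matches are nearly level.

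Within 50 bp of the summit there were 2568 AP-1 sites in members, against 128 at 200 to 250 bp on both sides, a ratio of 20.1 (16.8 to 24.2) over the same number of bases. Part of this ratio is set by the rule, which required a site near the middle. RUNX matches (TGTGGT), of a family that often neighbours AP-1, numbered 530 near the summit and 263 away from it, a ratio of 2.02 (1.74 to 2.35). TEAD matches (CATTCC), of the factors that recruit YAP and TAZ, gave 449 and 185, a ratio of 2.43 (2.04 to 2.90). In regions with neither AP-1 nor ETS site the same ratios were 2.71 (2.24 to 3.29) for RUNX and 2.55 (2.09 to 3.12) for TEAD. Both were higher than in members. The RUNX intervals overlap only from 2.24 to 2.35 and the TEAD intervals overlap widely, and the differences were not tested. Looser ETS matches, A or C followed by GGAA and then A or G, gave a ratio of 1.28 (1.18 to 1.39) in members and 1.17 (1.06 to 1.30) in regions with neither site. The strict ETS site is 1 form of this looser one, and the rule removed it from the members.

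Most members carried a single AP-1 site. Exactly 1 site was present in 2244 members (72.2%), 2 sites in 741, 3 sites in 107 and at least 4 in 14, so 862 members (27.8%, 26.2 to 29.4) had more than 1. Neighbouring sites in a member were a median of 68 bp apart, and 377 of 999 neighbouring pairs (37.7%) were within 50 bp. The number of sites went with little difference in signal. Median fold enrichment in siControl TGF-β was 9.48 with 1 site, 9.84 with 2, 9.60 with 3 and 11.1 with at least 4. In siControl untreated it was 8.28, 8.30, 8.42 and 8.65 in the same order. Across members, the rank correlation between the number of sites and the mean fold enrichment over the 4 libraries was 0.05.

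The number of sites did go with whether a genomic AP-1 site was accessible at all. The autosomes hold 354975 AP-1 sites that are more than 2 kb from a TSS and have no ETS site in the 500 bp around them. Of these, 11882 (3.35%) lay inside a peak region of at least 1 library and 3961 (1.12%, 1.08 to 1.15) inside a region called in all 4. The constant regions held 1.31% of the sites that are not repeat-masked and 0.277% of those that are. Among sites that are not repeat-masked, the share inside a constant region was 0.817% (0.783 to 0.852) for a lone site, 4.87% (4.62 to 5.13) with 2 sites in 500 bp and 15.7% (14.1 to 17.4) with 3. With 4 or more it was 3.71% (2.64 to 5.19) of 863 sites. Sites that share a window fall into the same region and are not independent, so these intervals are too narrow.

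The bases next to the AP-1 palindrome also went with accessibility. Each arm of the palindrome can be preceded by a purine (A or G) or by a pyrimidine. Among sites that are not repeat-masked, 0.579% (0.528 to 0.635) lay in a constant region when neither arm was preceded by a purine, 1.26% (1.21 to 1.32) when 1 was, and 2.31% (2.20 to 2.43) when both were. The order was the same in each band of G+C content, from 0.126%, 0.353% and 0.854% below 40% G+C to 1.82%, 3.93% and 6.25% at 50% G+C or more. The site has 16 forms with its flanking bases, in the orientation with G in the centre. Outside repeats the highest share was that of GTGAGTCAC, at 2.66% (2.43 to 2.92), and the lowest that of TTGAGTCAA, at 0.193%. The interval of GTGAGTCAC overlaps that of GTGAGTCAT, at 2.49% (2.23 to 2.77). With repeats included, ATGAGTCAC had the highest share, at 2.18%, and GTGAGTCAC had 2.01%. Members were also grouped by the form of the site nearest the summit. Median fold enrichment in siControl TGF-β was 9.66 in the 374 members with GTGAGTCAC. It was lowest in the 25 with TTGAGTCAA, at 8.48, and highest in the 56 with CTGAGTCAA, at 10.0. In siControl untreated the order of GTGAGTCAC and TTGAGTCAA was the other way, at 8.26 and 8.44. No interval was computed for these medians.

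**Figure D2:**
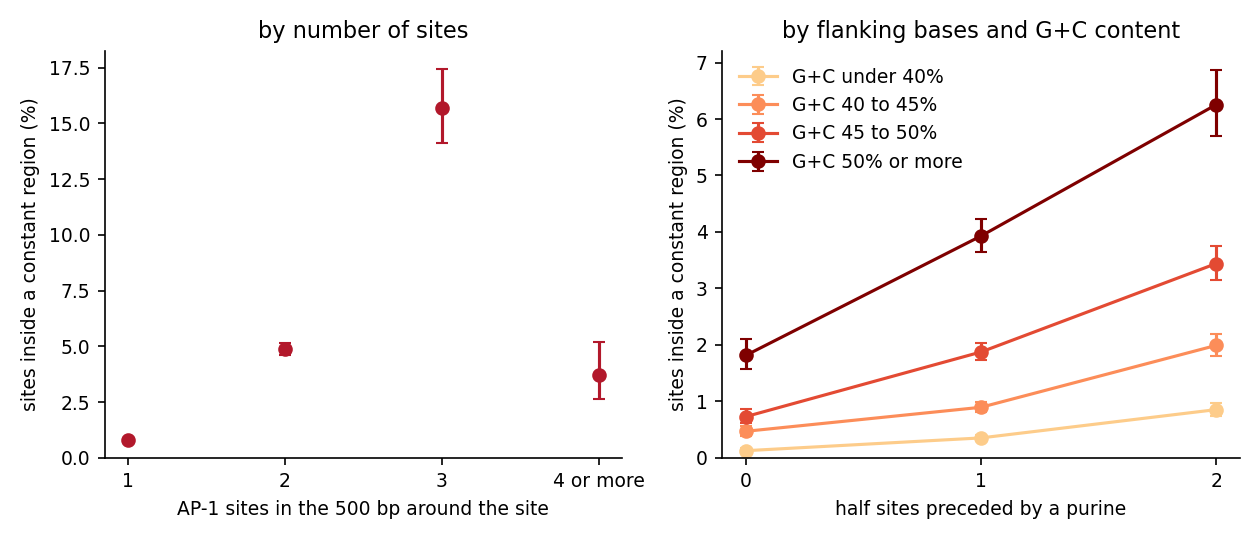
Percent of genomic distal AP-1 sites outside repeats that lie inside a region called in all 4 libraries, with 95% Wilson intervals, by the number of AP-1 sites in 500 bp (left) and by how many arms of the palindrome follow a purine, within 4 bands of G+C content (right). The share is highest with 3 sites, at 15.7%, and in every band of G+C content it is higher with more purine flanks.

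Other motifs were present in members about as often as in the constant distal regions with neither an AP-1 nor an ETS site, with a few exceptions. Motifs were searched on both strands of the 500 bp. A RUNX match was found in 43.1% of members (41.4 to 44.9), in 44.4% of regions with neither site and in 31.3% of the distal tiles. A TEAD match was found in 35.4% (33.7 to 37.1), 39.1% and 25.2% of the same sets. Matches of TFAP2 (GCCNNNGGC), a factor of epithelial cells, were found in 16.5% of members, 17.6% of regions with neither site and 6.32% of tiles. The plainest difference was CTCF, the factor of insulators and loop anchors, whose core motif was found in 59 members (1.90%, 1.48 to 2.44) and in 9.81% (8.60 to 11.2) of regions with neither site. The CTCF share was 2.81% (1.21 to 6.41) in regions with AP-1 and ETS, 9.63% in regions with ETS only and 0.360% in tiles. A low share was thus not particular to members. CRE matches (TGACGTCA), which ATF and CREB proteins bind, were found in 18 members (0.580%, 0.367 to 0.914) and in 1.46% (1.02 to 2.07) of regions with neither site. GATA matches (AGATAA) were found in 19.6% of members, 18.2% of regions with neither site and 30.1% of tiles. The looser ETS site was found in 82.5% of members, 84.2% of regions with neither site and 73.5% of tiles, so most members are without an ETS site only in the strict sense of the rule.

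The fold enrichment of a peak, as deposited, is the signal at its summit over the local background. Members had a median fold enrichment of 8.29 (8.22 to 8.34) in siControl untreated, 9.58 (9.48 to 9.68) in siControl TGF-β, 8.43 (8.34 to 8.49) under set 1 and 7.12 (7.06 to 7.16) with set 2. The library of siControl TGF-β was thus the highest and that of set 2 the lowest. The number of fragments at the summit, recovered from the deposited values, had medians of 23, 30, 26 and 22 in the same order, at estimated depths of 15.3, 16.3, 17.3 and 20.7 M reads. The peaks had a median width of 215, 256, 235 and 197 bp, in that order. Regions of the other classes lay close by, at 8.33, 9.28, 8.23 and 7.14 for the 2424 other constant distal regions. In siControl TGF-β the median of members was higher than that of the others by 0.05 on the log2 scale (0.02 to 0.06). Under set 1 the intervals of the medians also did not overlap, at 8.34 to 8.49 for members and 8.15 to 8.31 for the others. In siControl untreated and with set 2 they overlapped.

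**Figure D3:**
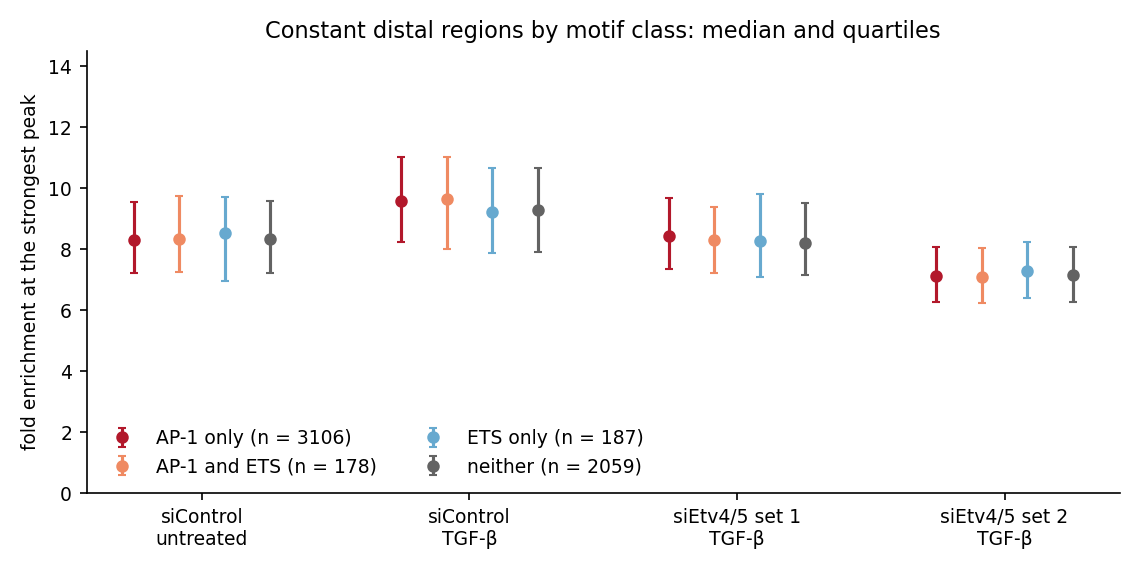
Fold enrichment of the strongest peak in each constant distal region, by motif class and library. Points are medians and bars run from the lower to the upper quartile over regions, and the medians of the 4 classes lie within each other's quartiles in every library.

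Members were a smaller share of the strongest regions called in all 4 libraries than of all such regions. This pool includes regions within 2 kb of a TSS, which the rule kept out of the members. In siControl untreated the median fold enrichment was 8.80 over the pool, 8.29 in members and 8.33 in the other constant distal regions. Members made up 29.3% of all regions called in all 4 libraries. Among the 1000 strongest of these by fold enrichment they made up 10.7% in siControl untreated, 18.5% in siControl TGF-β, 20.5% under set 1 and 17.9% with set 2. The fold enrichment of single members ranged from 3.79 to 19.9 in siControl TGF-β. Across members, log2 fold enrichment correlated between libraries with Pearson r of 0.46 to 0.58, where the libraries share the regions, their sequence and the requirement of a call.

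The members with the most fragments per M reads stood on a high local background. The member near Sfi1 at chr11:3159745-3159981 held 123 fragments at the summit in siControl untreated, 137 in siControl TGF-β, 131 under set 1 and 142 under set 2. Its background was 23.4, 26.4, 27.9 and 32.6 fragments, so its fold enrichment was only 5.07, 5.04, 4.56 and 4.25. A second member near Sfi1 and one near Tubb3 had fold enrichments between 3.03 and 5.11. The 2 remaining members of this group were 453 and 452 kb upstream of Myc, a growth regulator, with fold enrichments between 5.51 and 7.82. Their background was 6.72 to 13.15 fragments, where the median of members was 1.83 to 2.24 by library. The named members with most sites in 500 bp stood on a background of 1.13 to 2.54 fragments. The 6-site member near Usp7, which encodes a deubiquitinase, had fold enrichments of 11.9, 13.8, 9.79 and 8.33. A further 13 members tie with 4 sites each. The 4 of these with the highest mean fold enrichment, chosen by that value, lie near Camta1, Cdc5l, Msra and Tax1bp1 and had values between 12.8 and 14.3 in siControl TGF-β and between 8.38 and 11.5 with set 2.

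The study asked how TGF-β, and Etv4 and Etv5 under TGF-β, bear on accessibility. The members were accessible in all 4 groups by definition, so these comparisons concern the size of the signal. The siControl TGF-β library was set against siControl untreated, and each siRNA set against siControl TGF-β. A high value in siControl TGF-β raises the ratio to untreated and lowers both ratios of the siRNA sets, so the 3 comparisons are not independent. A region is counted as higher or lower where its fold enrichment differed by at least 1.5-fold, and the same count is given for fragments per M reads. Since the rule required a call in every library, the counts and medians below describe the members and are not evidence of an effect.

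With TGF-β, members had a median log2 ratio of fold enrichment of 0.20 (0.19 to 0.21), a 1.15-fold higher value. The ratio was above 0 in 2335 of 3106 members (75.2%). At least 1.5-fold higher were 289 members (9.30%), where 6.55% of all 10587 regions called in all 4 libraries were, and 19 (0.612%) were at least 1.5-fold lower, where 0.822% of all were. In fragments per M reads, 587 members (18.9%) and 12% of all regions were at least 1.5-fold higher, so the counts depended on the scale. All these regions had a median of 0.15, so most of the shift was common to them, and members stood 0.06 above it. The other constant distal regions had a median of 0.14, and members were 0.06 higher (0.04 to 0.08). With the looser ETS site in the rule, 545 members were left, with a median of 0.20. The 2561 members with that site then joined the other constant distal regions, from which the difference was 0.0215 (0.00246 to 0.0562). In fragments per M reads, with the rule as it stands, the difference was 0.0896. The difference was 0.06 in each tercile of mean fold enrichment, and 0.05, 0.03 and 0.10 from the lowest to the highest tercile of G+C content. In fragments per M reads the medians were 0.27 in members and 0.18 in the others. Regions with AP-1 and ETS had a median of 0.17 (0.12 to 0.21), those with ETS only 0.12 (0.10 to 0.19) and those with neither 0.14 (0.12 to 0.16).

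With siEtv4/5 set 1, members had a median log2 ratio of -0.18 (-0.19 to -0.16) to siControl TGF-β. At least 1.5-fold lower were 221 members (7.12%), beside 7.17% of all regions called in all 4 libraries, and 7 (0.225%) were higher, beside 0.387% of all. Counted in fragments per M reads, 572 members (18.4%) and 16.2% of all regions were at least 1.5-fold lower. All these regions had a median of -0.18 as well. Members were lower than the other constant distal regions by 0.02, with an interval that reached from -0.04 to nearly 0. Regions with AP-1 and ETS had a median of -0.16, those with ETS only -0.14 and those with neither -0.16, with overlapping intervals.

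With siEtv4/5 set 2 the ratio was further from 0, with a median of -0.42 (-0.43 to -0.41). At least 1.5-fold lower were 891 members (28.7%), beside 26.8% of all regions, and no member was at least 1.5-fold higher, beside 0.104% of all. On the scale of fragments per M reads, 2082 members (67.03%) and 63.7% of all regions were at least 1.5-fold lower. The median of all regions was -0.40. The other constant distal regions had a median of -0.37, and members were lower than they were by 0.04 (0.02 to 0.07). Regions with AP-1 and ETS had a median of -0.41 (-0.45 to -0.37) and those with ETS only -0.35 (-0.41 to -0.30). In fragments per M reads the median of members was -0.74 for set 2 and -0.28 for set 1, so the size of the difference depended on the scale, most of all for set 2, the deepest library with the shortest list.

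**Figure D4:**
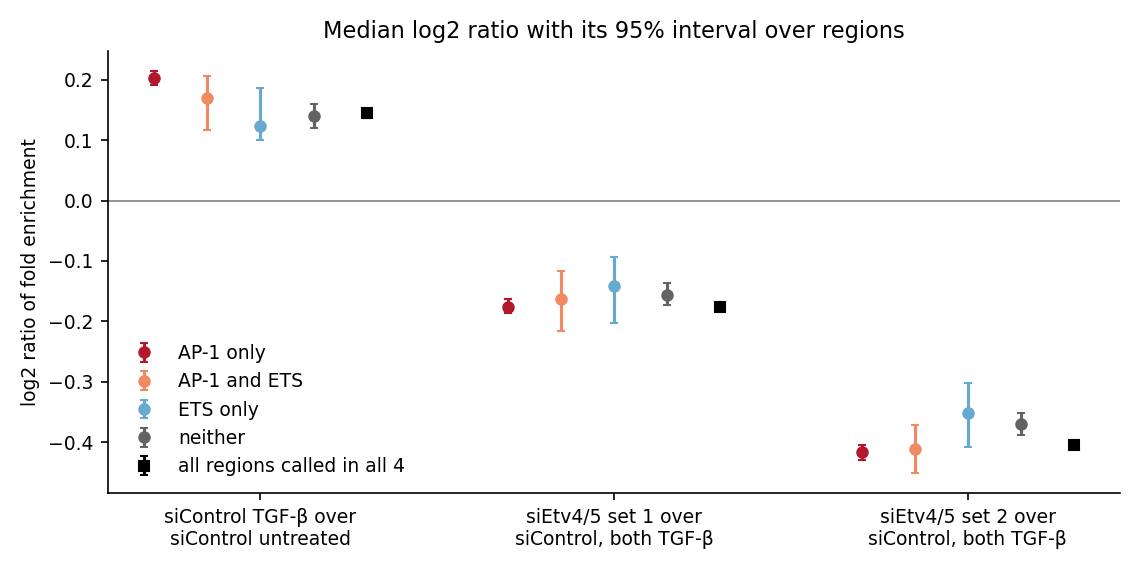
Median log2 ratio of fold enrichment for the 3 comparisons, by motif class of constant distal regions and for all regions called in all 4 libraries, with 95% order-statistic intervals over regions. Members (AP-1 only) stand highest in the TGF-β comparison, at 0.20, with an interval that overlaps that of AP-1 and ETS. In the set 2 comparison they stand lowest, at -0.42 (-0.43 to -0.41), and apart from regions with neither site (-0.39 to -0.35).

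Set directly against siControl untreated, the TGF-β library with set 1 gave members a median log2 ratio of 0.02 (0.00 to 0.03), and that with set 2 gave -0.22 (-0.23 to -0.21), beside -0.04 and -0.26 for all regions called in all 4 libraries. In fragments per M reads the same medians of members were -0.02 (-0.03 to 0.00) and -0.49 (-0.50 to -0.43), beside -0.10 and -0.54 for all, so the sign for set 1 depended on the scale. Among the 4 libraries, siControl TGF-β held the highest value in 1878 members (60.5%) and set 2 the lowest in 1995 (64.2%). The corresponding shares over all regions called in all 4 libraries were 55.3% and 65.3%. The highest and the lowest library of a member differed by a median of 1.45-fold, and by less than 2-fold in 96.8% of members. Members took 56.0% of the summit fragments of all constant distal regions in siControl untreated, 57.4% (57.2 to 57.7) in siControl TGF-β, 56.7% under set 1 and 56.0% with set 2. These shares are close to the 56.2% of constant distal regions that members made up by number.

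Over members the log2 ratio had an SD of 0.30 with TGF-β, 0.28 under set 1 and 0.29 under set 2. In fragments per M reads the SD was 0.36, 0.33 and 0.35, and counting error of independent summit fragments would give 0.41, 0.39 and 0.41. The rule required a call in every library, which removes low values and narrows the spread, so these SDs do not separate counting error from other variation. The ratios of single members are best read with their counting intervals.

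The ratios went with neither the number of AP-1 sites nor the other motifs to a degree that their intervals separate. For TGF-β the median was 0.20 (0.19 to 0.21) with 1 site, 0.22 (0.19 to 0.25) with 2, 0.20 (0.15 to 0.26) with 3 and 0.28 (0.16 to 0.45) with at least 4. The 2561 members with a looser ETS site had medians of 0.20 with TGF-β, -0.17 under set 1 and -0.42 under set 2. The 545 members without even that site had 0.20 (0.18 to 0.23), -0.19 (-0.22 to -0.16) and -0.42 (-0.45 to -0.40). Members with a RUNX match had 0.21, -0.18 and -0.43, and those without 0.20, -0.17 and -0.41. The 59 members with a CTCF match had the highest fold enrichment in siControl untreated among the motifs compared, at 9.57, and a median ratio for TGF-β of 0.13 (0.00 to 0.25).

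By nearest protein-coding TSS the members fell to 2324 genes, 11.2% of the 20780 autosomal protein-coding genes. Most genes, 1796, had a single member. Myc had the most, with 10, followed by Nfatc2, a calcium-dependent transcription factor, and Sox9, a regulator of mammary stem cells, with 9 each, and by Zfpm1 and Cited2 with 7 each. Local background was high at the members near Myc described above, and whether it bears on the count was not tested. Lists of genes chosen for this tissue and treatment are described next, each with the share of its autosomal genes that had a member and with 1 strong member per gene. Genes with large flanking territories collect more regions, and no test was made of these shares.

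Of the genes that encode AP-1 itself, 3 of 12 had a member, Fosb, Fosl2 and Jdp2. The region 6.92 kb upstream of Fosb, which encodes FosB, held 2 AP-1 sites and had fold enrichments of 8.14 in siControl untreated, 6.30 in siControl TGF-β, 8.09 under set 1 and 5.47 with set 2. The region 99.9 kb upstream of Fosl2, which encodes Fra-2, held 3 sites and had 8.57, 9.18, 7.09 and 8.71. The region near Jdp2, a repressor among the AP-1 proteins, had 8.29, 8.98, 7.39 and 7.68. None of the 3 was at least 1.5-fold higher or lower in any of the comparisons, and with shares of 6.55% higher with TGF-β, 7.17% lower with set 1 and 26.8% lower with set 2 over all regions, a count of 0 among 3 says little about these genes.

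The Ras-ERK feedback genes, which restrain signaling below Ras, were the list with the largest share, at 11 of 18 genes (61.1%) with 23 members. Their median log2 ratio was 0.21 with TGF-β, against -0.32 under set 1 and -0.44 under set 2. At least 1.5-fold higher with TGF-β were 2 of the 23, lower with set 1 was 1 and lower with set 2 were 5, against 6.55%, 7.17% and 26.8% of all regions. The member 216 kb upstream of Dusp4, a phosphatase that inactivates ERK, had fold enrichments of 7.77 in siControl untreated, 12.9 in siControl TGF-β, 9.42 under set 1 and 6.30 with set 2. The siControl TGF-β library was the highest there, and the ratio in fragments per M reads was 1.74 (1.00 to 3.12) to untreated and 0.44 (0.25 to 0.77) for set 2. Members near Phlda1, Spred2, a membrane-bound inhibitor of the pathway, and Rasal2, a Ras GTPase-activating protein, had values between 9.56 and 11.1 in both siControl libraries.

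Of the EGF family ligands and receptors, which signal into Ras, listed with the receptor inhibitor Errfi1, 7 of 12 genes (58.3%) had a member, with 11 members in all. Errfi1 is among the 7. Their median log2 ratio for TGF-β was -0.05, below that of members as a whole. No member of this list was 1.5-fold higher or lower with TGF-β, and over all regions only 6.55% and 0.822% were. The member 17.3 kb from the TSS of Areg, which encodes the ligand amphiregulin, had fold enrichments of 9.27, 9.26, 8.73 and 8.06 in the order untreated, TGF-β, set 1 and set 2. The member 56.4 kb upstream of Egfr, the receptor, had 9.23, 8.88, 9.74 and 7.02. The member near Nrg1, a ligand of ErbB3, had 11.3, 10.97, 7.91 and 9.53. Both siControl libraries were thus nearly level at all 3, and set 2 was the lowest at Areg and Egfr and set 1 at Nrg1.

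TGF-β signaling and feedback genes had a member at 11 of 22 genes (50.0%), with 21 members and median log2 ratios of 0.20, -0.12 and -0.41. The member in an intron of Tgfbr2, which encodes the type II receptor, had fold enrichments of 6.69, 10.2, 9.61 and 5.67, so it was high in siControl TGF-β and under set 1 and low in the other two. Its ratio for TGF-β was 1.55 (0.82 to 3.01) in fragments per M reads, an interval that includes 1. The member 12.8 kb from the TSS of Tgif1, a corepressor of Smads, had 7.45, 10.6, 9.30 and 7.65, again highest in siControl TGF-β and next under set 1. The member upstream of Ltbp1, which binds latent TGF-β, had 8.08, 9.30, 7.04 and 4.85.

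Integrins, laminins and other adhesion genes, many of which anchor epithelial cells to the basement membrane, had a member at 12 of 23 genes (52.2%), which include Dst and Plec, linkers of hemidesmosomes, and Cd44, and the 16 members had a median log2 ratio of 0.30 with TGF-β, against -0.05 under set 1 and -0.38 under set 2. The intronic member of Lamc1, a laminin chain, had fold enrichments of 11.3, 13.7, 11.2 and 9.25. The intronic member of Cd44, the hyaluronan receptor, had 6.20, 8.41, 7.70 and 6.74. Set 2 was the lowest library at Lamc1 and untreated the lowest at Cd44.

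Protease genes and their regulators had a member at 4 of 18 genes (22.2%). The intronic member of Plaur, the urokinase receptor, had fold enrichments of 10.2, 11.5, 13.2 and 7.73. The member upstream of Mmp13, a collagenase, held 2 AP-1 sites and had 8.75, 6.60, 6.32 and 6.04. Its local background was 1.97, 3.39, 3.27 and 3.14 fragments, and in fragments per M reads its ratio with TGF-β was 1.05 (0.59 to 1.88), so its direction with TGF-β depended on the scale. Of the genes of the actin cytoskeleton and focal adhesions, 7 of 21 (33.3%) had a member. The intronic member of Myh9, the heavy chain of nonmuscle myosin, had 34 fragments at the summit in siControl untreated, 58 in siControl TGF-β, 43 under set 1 and 31 with set 2. Its ratios in fragments per M reads were 1.60 (1.03 to 2.52) for TGF-β and 0.42 (0.26 to 0.66) for set 2, and both intervals exclude 1 before any allowance for the number of members.

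Epithelial genes had a member at 8 of 25 genes (32.0%) and mesenchymal genes at 9 of 22 (40.9%). The 8 epithelial members had median log2 ratios of 0.23, -0.29 and -0.46, and the 16 mesenchymal ones 0.13, -0.14 and -0.39. The member 55.4 kb from the TSS of Cldn1, a tight junction protein, had fold enrichments of 10.5, 11.9, 7.19 and 8.44, and that upstream of Grhl2, an epithelial transcription factor, had 9.55, 11.7, 9.48 and 6.27. Both were highest in siControl TGF-β. The member 111 kb upstream of Fn1, which encodes fibronectin, had 8.64, 8.91, 8.55 and 7.42 and was nearly level in the 3 libraries other than set 2. The member upstream of Tnc, the matrix protein tenascin C, had 8.80, 9.08, 5.53 and 7.82. The member 273 kb upstream of Thbs1, which encodes thrombospondin, had 10.3, 6.88, 7.91 and 6.46, with the untreated library the highest.

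The members at the extremes of each ratio were chosen by these values and are given as a description. The highest ratio for TGF-β was that of an intergenic region 94.0 kb upstream of Trim52, with fold enrichments of 6.79 in siControl untreated, 17.6 in siControl TGF-β, 13.8 under set 1 and 6.38 with set 2. It had 15, 45, 33 and 16 fragments at the summit, and its ratio in fragments per M reads was 2.82 (1.54 to 5.44) for TGF-β and 0.28 (0.15 to 0.50) for set 2. The intronic members of Focad and Crybg1 followed, with 5.25 and 7.37 in the untreated library and 11.98 and 16.6 with TGF-β. At all 3 the set 1 library was the second highest. The lowest ratio for TGF-β was that of a region 31.1 kb upstream of Hes1, a Notch target, with fold enrichments of 12.04, 6.64, 9.69 and 6.96. A region near Rbms2 had 11.5, 6.63, 11.04 and 6.69, with untreated and set 1 high and the other two low.

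For set 1 the lowest ratio was in an intron of Osmr, which encodes the oncostatin M receptor, with fold enrichments of 7.85, 13.40, 5.54 and 6.06. Both siRNA sets were low there, with ratios in fragments per M reads of 0.38 (0.20 to 0.68) for set 1 and 0.38 (0.21 to 0.65) for set 2. Regions near Pax2 and Atp2b1 were also lower with both sets than in siControl TGF-β, where they had 17.4 and 14.7. They had 8.20 and 7.06 under set 1 and 8.50 and 8.93 with set 2. In siControl untreated they had 12.8 and 8.50, so near Atp2b1 siControl TGF-β alone was high. The highest ratio for set 1 was near Rpl27a, in an intron of St5, with 6.29, 5.48, 12.5 and 6.52, where set 1 alone was high. For set 2 the lowest ratio was near Tbx21, with 10.3, 16.3, 12.7 and 5.84. The highest was near Hmga2, a chromatin protein of mesenchymal transition, with 6.20, 5.70, 7.32 and 8.48, a ratio of 1.22 (0.67 to 2.26) in fragments per M reads, which includes 1.

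**Figure D5:**
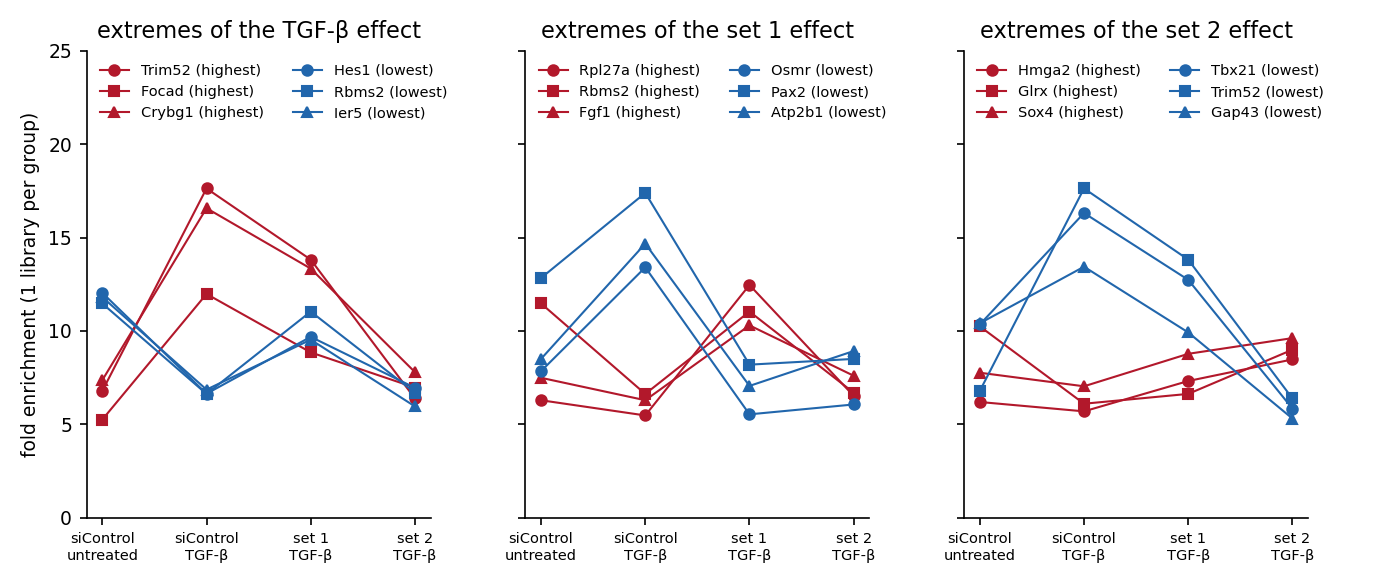
Fold enrichment in the 4 libraries, 1 value per library, of the 3 members with the highest (red) and the 3 with the lowest (blue) ratio in each comparison, named by nearest gene. The members were chosen by these values, so the contrast within each panel is set by the choice, and siControl TGF-β is the shared library of all 3 comparisons.

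The epithelial identity of the cells was checked at promoters. A region within 2 kb of a TSS was called in at least 1 library for 6 of 6 epithelial markers, but only Krt8 was called in all 4 libraries. Krt18 and Cldn4 were called in 3, Cdh1 in siControl untreated and set 2, Epcam in siControl untreated alone and Esrp1 in siControl TGF-β alone. It was called for none of 4 blood markers and for 1 of 3 endothelial ones, Pecam1, in siControl TGF-β only, and Cdh5 and Kdr had no region in any library. The depth estimated from the background was 15.3 to 20.7 M reads, with set 2 the deepest. Batch and group cannot be told apart, since each group is a single library.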

How the data were processed

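FAIRE-seq libraries of EpRas cells at day 4 were assigned to 4 groups from their labels, each with 1 list of peaks. The authors sequenced on an Ion Proton, trimmed the reads, mapped them to mm10 with Bowtie and called peaks at a q-value below 0.0001 with MACS2, version 2.1.0 per the labels. The deposited lists give a fold enrichment over local background (a ratio), the p-value and q-value as -log10, the summit offset and a whole-number score, which was not used. Summit fragments (the pileup) and background were solved from the deposited fold enrichment, with the caller's pseudocount of 1, and the Poisson -log10 p-value, and were whole within 0.05 in 100% of peaks. Depth was the genome-wide background times 1.87e+09 bp over the shortest peak width, so it is an estimate and scales fragments per M reads.

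Peaks overlapping by at least 1 bp were merged, and a region took, for each library, its peak with the highest value. TSSs came from the GENCODE basic annotation, release M21, and sequence from the RefSeq GRCm38 assembly. Ratios were compared as log2. Intervals are 95%: order-statistic for medians, Wilson or exact for shares and exact conditional for fragment ratios. The interval of a difference of medians combines both in quadrature. No test was run, since each group has 1 list. Members were named as the 5 with most fragments per M reads, the 5 with most sites, the 3 highest and 3 lowest for each ratio, and the strongest per gene for up to 4 genes a list. The members and lists were chosen with earlier results of these data known. The functions were tested on simulated data. Python 3.11.15, numpy 2.4.6, pandas 2.3.3 and scipy 1.17.1 were used. Alternatives were stricter q-values, a 50 bp shared overlap, equal list length, another window, ETS site, TSS set or distance, fragments per M reads, and leaving out a library. No sequence of chromosome 18 was printed. A few named members and 1 sequence are not reported here.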

Additional observations from a re-analysis of the deposited data

How the results depend on the processing

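The 11 values on which the text rests were recomputed under 111 combinations of value and setting. Of these, 94 stayed within the 95% interval of the value given (for the number of members, within 1.5 times it) and 17 moved outside it. None of the log2 values changed sign, and the counts, distances and shares cannot. For set 1 the interval of the difference from the other constant distal regions included 0 with the 200 bp window, the looser ETS site and the 5 kb limit. For set 2 it did so with the looser ETS site. With equal list length, the 14925 most significant peaks of each library, the members numbered 1803, their median log2 ratio was 0.19 with TGF-β, -0.19 under set 1 and -0.48 under set 2, 29.7% had 2 or more AP-1 sites, and 0.667% of distal AP-1 sites lay in a constant region. With the looser ETS site the members numbered 545 and their TGF-β ratio exceeded that of the other constant distal regions by 0.0215. Those other regions then included the 2561 members that hold the looser site. In summit fragments per M reads the medians were 0.27 with TGF-β, -0.28 under set 1 and -0.74 under set 2, the differences from the other constant distal regions were 0.0896, -0.0406 and -0.0826, and members were stronger than these by 0.0995 on the log2 scale. With a 200 bp window 21.8% of members had 2 or more sites. Leaving out 1 library at a time gave between 3149 and 4320 members, the most without set 2, with a distance from site to summit of 27 to 28 bp and 25.5% to 27.4% with 2 or more sites. The distance was not computed without siControl TGF-β, whose summit it uses. The TSS set of the comprehensive annotation was chosen after seeing the data and gave 2940 members. The cause of these shifts was not tested. No paired analysis was possible because each group has 1 list and no replicate numbers. Depth limits single members most, since a median summit held 22 to 30 fragments.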
